A study of Mus musculus with 6 samples.

Results

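The listed genes of apoptosis, necroptosis and pyroptosis were followed in liver with and without an active form of the transcription factor IRF3. The list held 41 genes, named by symbol from their role in cell death, and 40 of them had a row in a table of 20894 genes. Of these, 29 passed the filter on low counts and were tested. In IRF3-2D liver 10 members were higher and 3 lower than in Ctrl liver, at an adjusted p under 0.05 in edgeR's quasi-likelihood test. Among all 10802 genes tested, 26.3% were called, 13.2% higher and 13.1% lower, against 44.8% of the tested members. The list was chosen with earlier results of these data known, so this difference is no test of the members. Of 49 tested genes of these pathways outside the list, 30.6% were called. Xiap, an inhibitor of caspases, rose 2.78-fold, and Mlkl, the membrane-permeabilising effector of necroptosis, rose 3.24-fold. Bnip3, a mitochondrial member of the BCL2 family, fell 1.95-fold. These 3 calls held under every alternative processing tried, and the other 10 were lost under at least 1 of 14 alternatives.

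All mice carried the Irf3LSL-2D allele, which expresses IRF3-2D after Cre-mediated removal of a stop sequence. For the IRF3-2D mice the virus AAV8-TBG-Cre delivered Cre from the hepatocyte-active TBG promoter, so other liver cells are not the intended target. The Ctrl group received AAV8-TBG-GFP, so Cre against GFP and active IRF3 cannot be told apart. Both groups received ethanol into the abdominal cavity at 3 g/kg body weight, and liver was collected 2 h later. Each group held 3 liver samples, with no ethanol-free group. The sources used here give neither age nor sex, nor do they state a separate mouse for each sample, so the p-values rest on a spread among samples that could be technical.

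In mitochondrial apoptosis, BH3-only proteins release the effectors BAX and BAK from pro-survival BCL2 proteins, and cytochrome c then assembles with APAF1 and caspase-9. Death receptors act through the adaptor FADD and caspase-8, which in hepatocytes feeds into the mitochondrial route through BID. Where caspase-8 is held in check, RIPK1 and RIPK3 can activate MLKL, which opens the plasma membrane in necroptosis. In pyroptosis an inflammatory caspase cleaves gasdermin D, which forms the pore. IAP proteins restrain caspases or signalling complexes, and c-FLIP, the product of Cflar, restrains caspase-8. RNA levels say nothing of cleavage or activation of these proteins.

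Totals were 12054096 to 14830629 counts per library. Irf3 itself, which checks the labels, stood at 42.6, 46.4 and 60.3 CPM (counts per 1000000 counts, after TMM, a correction for composition) in Ctrl and at 117, 106 and 137 CPM in IRF3-2D libraries. The TMM factor of a Ctrl library was 0.822 to 0.879 and that of an IRF3-2D library 1.12 to 1.23, so the scaling matters. With library totals alone the median log2 fold change of all tested genes moved from 0.03 to 0.49, and 18 members were higher and 1 lower. The median of the tested members was then 0.64, against 0.19 with TMM. All changes below are relative to TMM.

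Markers of the labelled tissue were abundant, and markers of some other liver cells moved beside the cell death genes. The share called among all tested genes, 26.3%, stands beside the counts below. The 8 hepatocyte markers summed to 136022 to 182586 CPM in Ctrl and 71304 to 83715 in IRF3-2D libraries, with 6 called lower and 1 higher. Alb alone made up most of each sum, at 99840 to 144196 CPM in Ctrl and 46216 to 53514 in IRF3-2D. Ttr was the marker called higher, at 1.79-fold, and Tdo2 was 2.53-fold higher but not called. The 12 macrophage markers summed to 514 to 612 CPM in Ctrl and 924 to 1255 in IRF3-2D, with Mpeg1, C1qa, C1qb and Cd5l called higher of 11 tested and 7 not called. The 7 monocyte and dendritic cell markers with a row summed to 3.70 to 8.01 CPM in Ctrl and 7.73 to 24.5 in IRF3-2D. All 5 tested had positive estimates (median log2 fold change 1.19), and Ly6c2, a marker of inflammatory monocytes, was called 8.21-fold higher (edgeR adjusted p = 0.0138). Ly6c2 had 8, 3 and 9 counts in Ctrl and 74, 102 and 27 in IRF3-2D libraries. Of its 31-base sequence words 23.7% occur in other genes, so some of its reads may belong elsewhere. The 8 endothelial markers with a row summed to 419 to 451 CPM in Ctrl and 273 to 351 in IRF3-2D, with 5 of 7 tested called lower. Stellate cell marker sums overlapped, with 1 of 6 tested called, lower. Of 5 cholangiocyte and 2 B cell markers tested, edgeR called 0. Of 4 T and NK cell and 2 neutrophil markers tested, edgeR called 0, and 0 had an unadjusted p under 0.05. Their sums overlapped between groups, at 4.46 to 8.17 and 6.15 to 10.2 CPM for T and NK cells, where Cd3g was at 0, and the neutrophil sums stayed below those of macrophages in every library. Among macrophage markers, Cd68 was at 0 in the 3 Ctrl libraries and had 2, 0 and 2 counts in IRF3-2D, and Mpeg1 alone went from 163, 110 and 103 CPM to 561, 554 and 439. The part of these markers in the results was not tested, and fewer cells of a type and less RNA per cell cannot be told apart in bulk tissue.

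**Figure D1:**
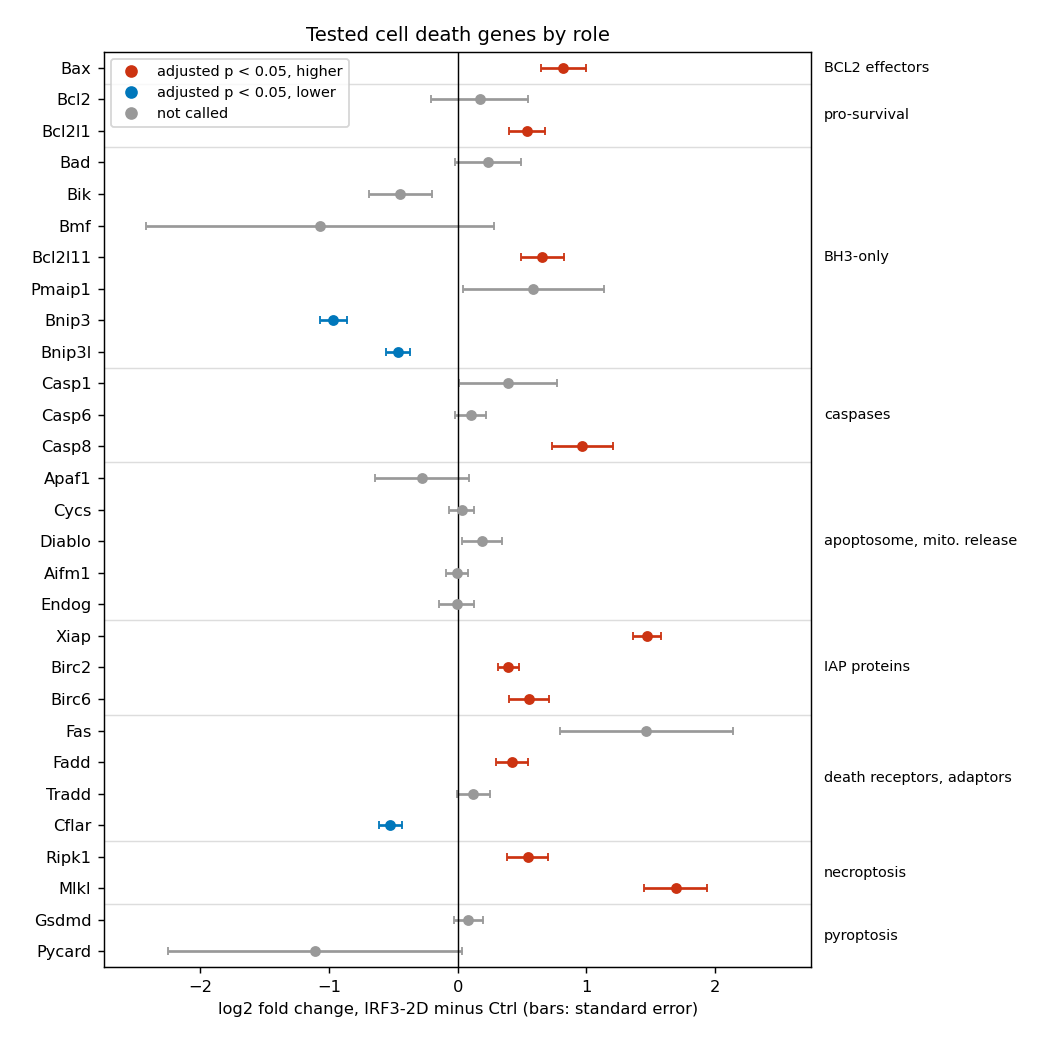
Log2 fold change of IRF3-2D minus Ctrl liver (horizontal axis) for the 29 tested cell death genes, grouped by role; points are edgeR estimates with TMM scaling and bars are standard errors. The 10 genes called higher range from Birc2 at 0.40 to Mlkl at 1.70, the 3 called lower lie between -0.97 and -0.46, and the wide bars of Bmf and Pycard come with values that differ strongly within a group.

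Of the BCL2 effectors only Bax could be tested. Bax, which forms pores in the outer mitochondrial membrane (ENSMUSG00000003873, chromosome 7, 45461697 to 45466898, minus strand; positions here and below are those of GENCODE M21, GRCm38), stood at 17.1, 14.4 and 15.7 CPM in Ctrl and at 35.1, 24.8 and 23.5 CPM in IRF3-2D libraries. All 3 IRF3-2D libraries lay above all 3 Ctrl libraries, with replicate 1 well above the other two. The change was 1.77-fold (log2 fold change 0.82, SE 0.18, adjusted p = 0.0144 by edgeR), and the call failed without Ctrl replicate 2 (log2 fold change 0.76, adjusted p = 0.0512). Bax shares 11.1% of its 31-base sequence words with transcripts of other genes, and it overlaps the protein-coding gene model Gm45808 on the same strand, so some of its reads may belong elsewhere. Bak1, the partner effector, was listed at 0 in every library. Bok, a related effector, had at most 7 counts in a library.

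Among the pro-survival members Bcl2l1 was higher and Bcl2 was not called. Bcl2l1, which encodes BCL-XL, a protein that helps keep hepatocyte BAX and BAK inactive (ENSMUSG00000007659, chromosome 2, 152780668 to 152831728, minus strand), stood at 41.9, 51.4 and 59.1 CPM in Ctrl and at 79.5, 75.6 and 66.5 CPM in IRF3-2D libraries. The groups did not overlap, and the gap between the lowest IRF3-2D and the highest Ctrl library was smaller than the range within either group. The rise was 1.45-fold (log2 fold change 0.54, SE 0.14, adjusted p = 0.0273 by edgeR). The call failed without Ctrl replicate 2 (log2 fold change 0.55), IRF3-2D replicate 1 (0.48) or IRF3-2D replicate 2 (0.53). Bcl2 was low, at 2.44 to 4.77 CPM in Ctrl and 2.95 to 5.17 in IRF3-2D, with overlapping groups (log2 fold change 0.17, SE 0.37). Mcl1, a further pro-survival gene known to be active in liver, was listed at 0 in every library, and no level of it can be read.

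The BH3-only and related mitochondrial genes split, with Bcl2l11 higher and Bnip3 and Bnip3l lower of 7 tested. Bcl2l11 encodes BIM, which binds all pro-survival BCL2 proteins (ENSMUSG00000027381, chromosome 2, 128126038 to 128162547, plus strand). Its level was 19.7, 18.3 and 22.4 CPM in Ctrl and 31.7, 38.3 and 25.4 CPM in IRF3-2D libraries. IRF3-2D replicate 3 lay closest to the Ctrl libraries, and the groups did not overlap. The rise of Bcl2l11 was 1.58-fold (log2 fold change 0.66, SE 0.17, adjusted p = 0.0269 by edgeR). It lost its call without Ctrl replicate 1 (log2 fold change 0.64), Ctrl replicate 2 (0.59), IRF3-2D replicate 1 (0.65) or IRF3-2D replicate 2 (0.50).

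Bnip3 and its paralog Bnip3l (also called NIX) encode proteins of the outer mitochondrial membrane that recruit autophagy to mitochondria. Bnip3 (ENSMUSG00000078566, chromosome 7, 138890836 to 138909519, minus strand) stood at 231, 218 and 269 CPM in Ctrl and at 121, 118 and 128 CPM in IRF3-2D libraries. The 3 IRF3-2D values were tightly grouped, and all lay far below the Ctrl values. The fall was 1.95-fold (log2 fold change -0.97, SE 0.10, adjusted p = 0.000824 by edgeR), and with library totals alone it was still called at a log2 fold change of -0.51. Bnip3l (ENSMUSG00000022051, chromosome 14, 66985239 to 67008877, minus strand) stood at 117, 138 and 134 CPM in Ctrl and at 96.8, 88.0 and 98.2 CPM in IRF3-2D libraries. These groups did not overlap either, and the change was smaller, at 1.38-fold lower (log2 fold change -0.46, SE 0.10, adjusted p = 0.0127 by edgeR). The call of Bnip3l was lost without IRF3-2D replicate 2 (log2 fold change -0.41) and with library totals alone (-0.01). Bnip3 and Bnip3l have 20.3% and 23.7% of their sequence words in common with other transcripts, so the placement of their reads is uncertain.

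The remaining BH3-only genes were not called or not testable. Bad, whose product is silenced by survival kinases, had overlapping groups, at 6.81 to 11.9 CPM in Ctrl and 9.77 to 14.1 in IRF3-2D (log2 fold change 0.24, SE 0.26). Bik, which acts at the endoplasmic reticulum, stood at 4.25 to 4.71 CPM in Ctrl and 3.23 to 3.47 in IRF3-2D. The IRF3-2D values of Bik lay below all Ctrl values, yet the test did not call it at this depth (log2 fold change -0.45, SE 0.24, adjusted p = 0.225 by edgeR). Pmaip1, which encodes NOXA, an antagonist of MCL1, was at 0.757 to 1.48 CPM in Ctrl and 0.721 to 2.03 in IRF3-2D, which overlapped (log2 fold change 0.59, SE 0.55). Bmf, a sensor linked to the cytoskeleton, had 19, 12 and 13 counts in Ctrl and 26, 0 and 0 in IRF3-2D libraries, so its estimate rests on which IRF3-2D library is read. Without IRF3-2D replicate 1 Bmf was called lower (adjusted p = 0.0209 by edgeR). Bid, the link from caspase-8 to mitochondria, had at most 4 counts in a library, and Bbc3, which encodes PUMA, at most 2.

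**Figure D2:**
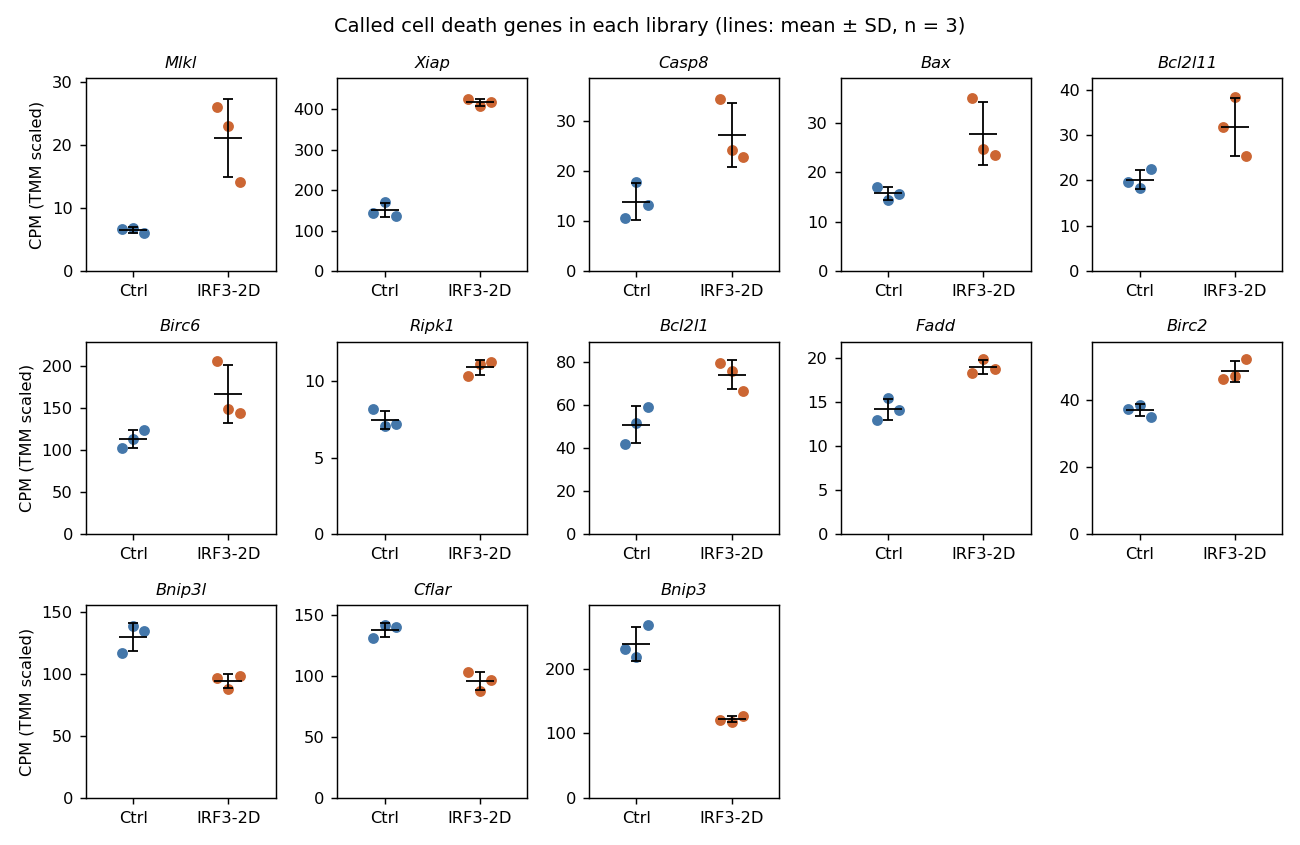
CPM with TMM scaling (vertical axes, each from 0) of the 13 called cell death genes in the 3 Ctrl and 3 IRF3-2D libraries; points are libraries in replicate order and lines are mean ± SD. No gene shown has overlapping groups, and IRF3-2D replicate 1 stands highest in its group for Bax at 35.1, Casp8 at 34.5 and Birc6 at 206 CPM.

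Of the caspases on the list Casp8 was higher, while Casp1 and Casp6 were not called. Casp8, the initiator caspase of death receptors (ENSMUSG00000026029, chromosome 1, 58795374 to 58847503, plus strand), stood at 10.5, 17.9 and 13.2 CPM in Ctrl and at 34.5, 24.3 and 22.8 CPM in IRF3-2D libraries. The groups did not overlap, with a wide spread inside each. The rise was 1.96-fold (log2 fold change 0.97, SE 0.24, adjusted p = 0.0241 by edgeR). The call failed without Ctrl replicate 1 (log2 fold change 0.81), Ctrl replicate 3 (0.93) or IRF3-2D replicate 1 (0.76). Casp6, an executioner caspase abundant in liver, had a mean of 35.2 ± 5.20 CPM in Ctrl against 37.8 ± 2.09 CPM in IRF3-2D libraries (SD, n = 3), with overlapping values (log2 fold change 0.10, SE 0.12). Casp1, the inflammasome caspase, which has 1 annotated transcript, was low in both groups at 1.72 to 3.52 CPM (log2 fold change 0.39, SE 0.38). Casp4, the receptor for intracellular endotoxin, was listed at 0 throughout. Casp9, the apoptosome caspase, had 1 to 7 counts. Casp12, a caspase of the endoplasmic reticulum, was at 0 in all 3 Ctrl libraries, had 11, 0 and 18 counts in IRF3-2D and did not pass the filter. Casp2 had no row and was not analysed here.

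The genes of the apoptosome and of the proteins released from mitochondria were not called. Of 6 listed, 5 were tested, none was called by edgeR or DESeq2, and none reached an unadjusted p of 0.05 in edgeR. Their log2 fold changes ran from -0.28 for Apaf1 to 0.19 for Diablo. Among all tested genes 26.3% were called, so with 5 genes the lack of a call says little about the group. Cycs, which encodes cytochrome c, stood at 128, 108 and 111 CPM in Ctrl and at 117, 114 and 125 CPM in IRF3-2D libraries. Aifm1, which encodes the apoptosis-inducing factor, also a respiratory chain assembly protein, stood at 193, 216 and 209 CPM in Ctrl and at 197, 205 and 215 CPM in IRF3-2D libraries. For both genes the libraries of the groups were interleaved. Standard errors were 0.10 for Cycs (log2 fold change 0.03) and 0.08 for Aifm1 (-0.00), so these are among the most precise values of the list. Endog, a mitochondrial nuclease with 1 annotated transcript, stood at 25.1 ± 1.84 and 24.9 ± 3.85 CPM, and Diablo, which encodes the IAP antagonist SMAC, at 25.6 ± 5.27 and 29.2 ± 2.05 CPM (SD, n = 3 each, Ctrl first). Apaf1, the scaffold of the apoptosome, was at 4.25 to 6.65 CPM in Ctrl and 2.59 to 6.23 in IRF3-2D. With library totals alone Cycs, Diablo, Aifm1 and Endog were called higher, at log2 fold changes of 0.48, 0.64, 0.45 and 0.44. The median of all tested genes was 0.49 under that scaling. Diablo, at 0.19 in the reported fit, lay above that median. For Cycs 29.2% and for Diablo 18.5% of the sequence words occur in other genes. Htra2, a released protease, had at most 2 counts in a library.

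All 3 IAP genes on the list were called higher in IRF3-2D liver, where 13.2% of all tested genes were. Of these calls only that of Xiap held under every alternative, and IAP genes outside the list, given below, were not called. Xiap, which binds and blocks caspases directly (ENSMUSG00000025860, chromosome X, 42059679 to 42109656, plus strand), stood at 145, 171 and 136 CPM in Ctrl and at 426, 408 and 419 CPM in IRF3-2D libraries. The IRF3-2D libraries lay far above the Ctrl libraries and within a narrow range. The rise was 2.78-fold (log2 fold change 1.47, SE 0.11, adjusted p = 0.000169 by edgeR), and over all alternatives the log2 fold change lay between 1.40 and 1.93 and was always called. Xiap has 2.39% of its sequence words in common with other genes.

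The other two IAP genes on the list changed less. Birc2, which encodes cIAP1, a ubiquitin ligase of the TNF receptor complex (ENSMUSG00000057367, chromosome 9, 7818227 to 7837064, minus strand), stood at 37.4, 38.5 and 35.0 CPM in Ctrl and at 46.4, 47.3 and 52.3 CPM in IRF3-2D libraries. Both groups were tight and did not overlap. The rise was 1.32-fold (log2 fold change 0.40, SE 0.09, adjusted p = 0.0148 by edgeR), lost without Ctrl replicate 3 (log2 fold change 0.36, adjusted p = 0.0573). Birc6, a giant ubiquitin-conjugating IAP (ENSMUSG00000024073, chromosome 17, 74528295 to 74703356, plus strand), stood at 102, 113 and 124 CPM in Ctrl and at 206, 149 and 144 CPM in IRF3-2D libraries. Here IRF3-2D replicate 1 stood far above the other libraries. The 1.47-fold rise (log2 fold change 0.56, SE 0.16, adjusted p = 0.0391 by edgeR) lost its call without Ctrl replicate 1 (log2 fold change 0.49), Ctrl replicate 2 (0.55), Ctrl replicate 3 (0.63), IRF3-2D replicate 1 (0.37) or IRF3-2D replicate 2 (0.63). Of 6 further IAP and NAIP genes tested, edgeR and DESeq2 called 0, with 1 at an unadjusted p under 0.05 in edgeR. That gene was Birc3, which encodes cIAP2, the close relative of cIAP1. Its estimate had the opposite sign to that of Birc2, and its IRF3-2D libraries all lay below its Ctrl libraries (log2 fold change -0.84, SE 0.34, adjusted p = 0.114 by edgeR). Birc5, which encodes survivin, a protein of dividing cells, had overlapping groups (log2 fold change -0.67, SE 0.51).

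In the death receptor pathway the adaptor gene Fadd was higher and Cflar, the brake on caspase-8, was lower. Cflar (ENSMUSG00000026031, chromosome 1, 58711508 to 58758884, plus strand) stood at 131, 142 and 141 CPM in Ctrl and at 103, 88.1 and 96.4 CPM in IRF3-2D libraries. All IRF3-2D libraries lay below all Ctrl libraries. The fall was 1.44-fold (log2 fold change -0.52, SE 0.09, adjusted p = 0.00578 by edgeR). It was kept whichever library was left out, but with library totals alone the log2 fold change was -0.07 and not called. Of its sequence words 9.26% occur in other genes.

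Fadd, the adaptor that joins death receptors to caspase-8 (ENSMUSG00000031077, chromosome 7, 144577318 to 144582463, minus strand), stood at 13.0, 15.5 and 14.1 CPM in Ctrl and at 18.4, 19.9 and 18.8 CPM in IRF3-2D libraries. The groups did not overlap, yet the call was close to the threshold (1.34-fold, log2 fold change 0.42, SE 0.12, adjusted p = 0.0420 by edgeR). It was lost without any 1 of the 6 libraries, at log2 fold changes of 0.36 to 0.48, and with DESeq2. The call of Fadd was also lost with RLE scaling in place of TMM and with no filter on low counts. Tradd, the adaptor of the TNF receptor, stood at 11.8 to 12.3 CPM in Ctrl and at 12.5 to 13.7 CPM in IRF3-2D libraries. The IRF3-2D values of Tradd were all above the Ctrl values but by little (log2 fold change 0.12, SE 0.13, adjusted p = 0.522 by edgeR). Fas, the receptor itself, had 1, 5 and 7 counts in Ctrl and 16, 10 and 19 in IRF3-2D libraries. The groups did not overlap, but the test at this depth did not call it (log2 fold change 1.47, SE 0.67, adjusted p = 0.154 by edgeR). Tnfrsf1a, which encodes TNF receptor 1, had at most 13 counts in a library and was not tested.

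Both tested genes of the necroptosis core were called higher, as were 13.2% of all tested genes. Only the call of Mlkl held under every alternative. Mlkl (ENSMUSG00000012519, chromosome 8, 111311797 to 111338177, minus strand) stood at 6.70, 6.81 and 6.02 CPM in Ctrl and at 26.1, 23.1 and 14.2 CPM in IRF3-2D libraries. The Ctrl libraries were nearly level, and the lowest IRF3-2D library, replicate 3, was still above 2 times the highest of them. The rise was 3.24-fold, the largest called among the members (log2 fold change 1.70, SE 0.24, adjusted p = 0.00293 by edgeR), with log2 fold changes of 1.51 to 2.16 over the alternatives, all of them called. Mlkl shares no sequence word with another gene. The macrophage marker sum given above was also higher in every IRF3-2D library, with 4 of 11 tested markers called, while the monocyte and dendritic cell sums overlapped, with 1 of 5 called. Their part in the change of Mlkl was not tested.

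Ripk1, the kinase that stands between survival signalling, apoptosis and necroptosis (ENSMUSG00000021408, chromosome 13, 34002363 to 34037147, plus strand), stood at 8.17, 7.07 and 7.19 CPM in Ctrl and at 10.3, 11.1 and 11.3 CPM in IRF3-2D libraries. The groups were separate and tight, and the change was modest at 1.46-fold (log2 fold change 0.55, SE 0.16, adjusted p = 0.0432 by edgeR). The call was lost with DESeq2 and without any 1 library other than Ctrl replicate 1, at log2 fold changes of 0.50 to 0.58. It was also lost with RLE or upper-quartile scaling in place of TMM and with no filter on low counts. Ripk3, the kinase that phosphorylates MLKL, had at most 11 counts in a library and was not tested, so the middle step of the pathway cannot be read.

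Promoter sequences are shown for the members of these 2 pathways with a match to the core of the interferon-stimulated response element, and for the members with the largest rises, where no match was found. The core, to which IRF proteins bind, was searched on both strands as 2 blocks of GAAA with any 2 bases between them (read as TTTC blocks from the other strand), from 250 bases before to 50 after each RefSeq gene start on GRCm38.p6. Matches that overlap were each counted. Each line gives 120 bases before to 30 after the start, 5′ to 3′ on the gene's strand, with a match in capitals.
Ripk1, chr13:34002754-34002903, plus strand: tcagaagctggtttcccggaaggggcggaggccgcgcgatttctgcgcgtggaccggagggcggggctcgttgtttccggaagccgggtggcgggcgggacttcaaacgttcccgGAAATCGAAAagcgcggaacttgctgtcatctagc
Cflar, chr1:58711371-58711520, plus strand: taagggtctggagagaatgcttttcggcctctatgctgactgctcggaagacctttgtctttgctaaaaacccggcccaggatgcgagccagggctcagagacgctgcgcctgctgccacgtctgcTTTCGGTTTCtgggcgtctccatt
Mlkl, chr8:111338176-111338325, minus strand: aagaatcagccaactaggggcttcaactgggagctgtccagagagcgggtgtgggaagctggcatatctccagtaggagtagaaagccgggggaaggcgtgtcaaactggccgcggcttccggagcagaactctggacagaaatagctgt
Xiap, chrX:42068278-42068427, plus strand: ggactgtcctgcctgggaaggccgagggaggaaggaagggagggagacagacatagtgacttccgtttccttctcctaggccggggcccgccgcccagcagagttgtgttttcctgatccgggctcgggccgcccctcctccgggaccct

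The matches of Ripk1 and Cflar lie at the start itself, from 5 bases before it to the fifth base after it in Ripk1 and at bases 7 to 16 after it in Cflar. Ripk1 was higher and Cflar lower, so a match was found with a change in each direction. Of 35 members matched by symbol in the promoter table, these 2 held a match (5.71%), against 3.99% of the 27025 genes of the table and 3.44% of its 32851 windows. Among all tested genes called higher 7.62% held a match, and among those called lower 3.17%. The other 9 members called higher, all of them matched, had none of these letters in the window, Mlkl and Xiap included. Ripk1 and Xiap have further starts in the table without a match. Bik, Bnip3l, Gsdmd, Htra2, Pmaip1 and Tradd were not matched.

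The pyroptosis members were not called. Gsdmd, which encodes the pore-forming gasdermin D, was well expressed, at 35.9, 39.2 and 46.3 CPM in Ctrl and at 44.2, 40.2 and 44.1 CPM in IRF3-2D libraries. The groups overlapped (log2 fold change 0.08, SE 0.11, adjusted p = 0.625 by edgeR). Pycard, which encodes the inflammasome adaptor ASC, had 133, 8 and 4 counts in Ctrl and 25, 25 and 33 in IRF3-2D libraries. A single library, Ctrl replicate 1, held most of the Ctrl signal of Pycard. Its log2 fold change was -1.11 (SE 1.14) and turned to 1.88 without that library, with neither value called.

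**Figure D3:**
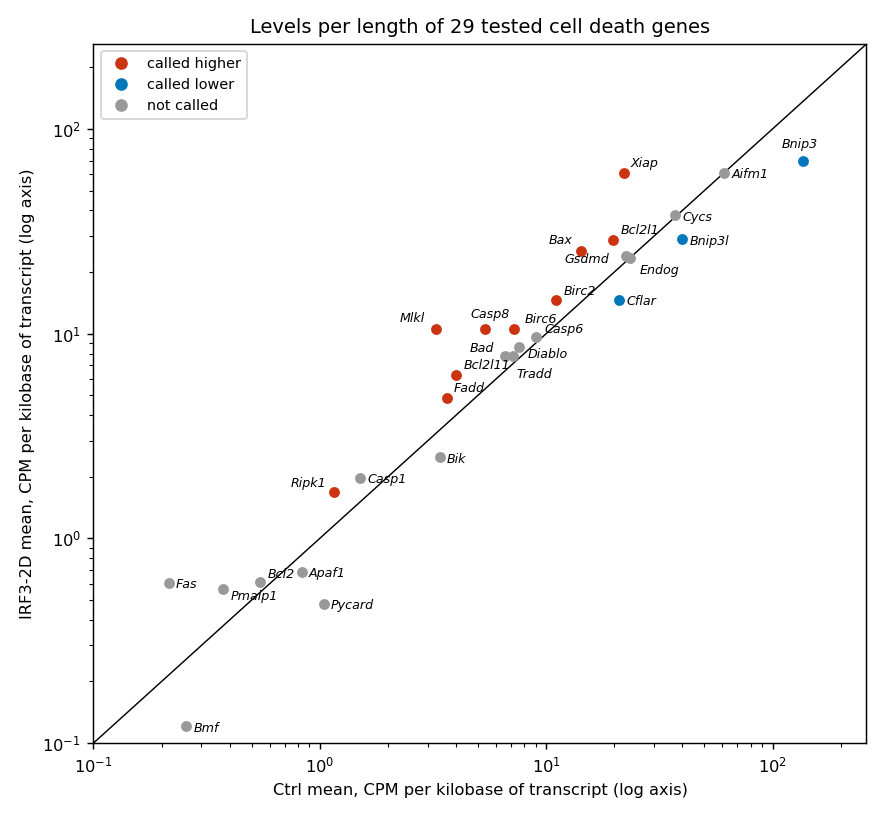
Mean level of the 29 tested cell death genes in Ctrl (horizontal) and IRF3-2D liver (vertical), as CPM per kilobase of the longest annotated transcript on log axes; the line marks equal levels. Bnip3 is the highest point in both groups, at 136 and 69.7, and Xiap lies farthest above the line among the abundant genes, at 22.0 and 61.1.

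Levels were also compared between genes per length, as mean CPM per kilobase of the longest annotated transcript. In Ctrl liver the highest members were Bnip3 at 136, Aifm1 at 61.3, Bnip3l at 39.9 and Cycs at 37.1, all of them genes of mitochondrial proteins. In IRF3-2D liver Bnip3 at 69.7, Aifm1 at 61.2 and Xiap at 61.1 came close to each other, Xiap having moved from rank 7 to rank 3. Mlkl moved from rank 21 to rank 13, at 3.25 and 10.5, while Bnip3l moved from rank 3 to rank 5 and Cflar from rank 8 to rank 11. Bax, at 14.3 and 25.3, lay below Bcl2l1, at 19.8 and 28.8, in both groups. Ripk1 was at 1.15 and 1.69, and Fas was the lowest of the tested members in Ctrl at 0.215. These levels assume that the longest transcript is the one expressed.

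Ratios of counts within a library do not depend on the scaling, and 5 pairs of members that act on each other or in sequence were compared, chosen after their values were seen and without a test. Casp8 to Cflar was 0.0803, 0.126 and 0.0940 in Ctrl and 0.335, 0.275 and 0.237 in IRF3-2D libraries, so the groups were separate and the mean ratio was 2.81 times higher. Xiap to its antagonist Diablo was 4.61, 6.97 and 6.47 in Ctrl and 15.7, 13.9 and 13.4 in IRF3-2D libraries, again without overlap. Mlkl to Ripk1 had means of 0.874 ± 0.0789 for Ctrl and 1.95 ± 0.641 for IRF3-2D (SD, n = 3), also without overlap and with a wide spread in IRF3-2D. Bax to Bcl2l1 was 0.407, 0.280 and 0.266 in Ctrl and 0.442, 0.328 and 0.354 in IRF3-2D libraries. These values overlapped, and both genes were higher. Bcl2l11 to Bcl2l1 overlapped too, at 0.402 ± 0.0597 and 0.429 ± 0.0681.

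**Figure D4:**
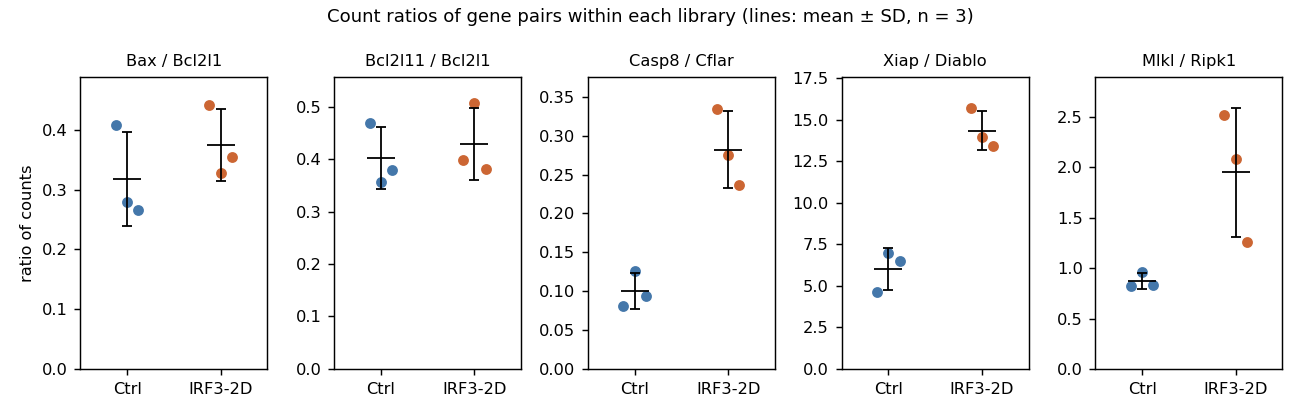
Ratio of the counts of 5 pairs of cell death genes within each library (vertical axes, each from 0), for 3 Ctrl and 3 IRF3-2D libraries; points are libraries and lines are mean ± SD. Casp8 to Cflar, Xiap to Diablo and Mlkl to Ripk1 are separate between groups, while Bax to Bcl2l1 and Bcl2l11 to Bcl2l1 overlap.

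Across the list, 16 of 29 tested members had groups that did not overlap, or 55.2% against 44.9% of all tested genes. Those 16 were the 13 called members and Bik, Fas and Tradd. The 11 members below the filter had at most 18 counts in a library, and Bak1, Mcl1 and Casp4 were listed at 0 in every library. The limit set by 3 counts in a library that shows 0 was 0.194 to 0.252 CPM, for counting error only. In a table of estimated counts a 0 can also be a failed estimate, so these zeros are not read as absence. Among the called members Fadd has 1 annotated transcript, and for the others a change may describe part of a gene's output. Casp8 and Ripk1 have 8.36% and 5.88% of their sequence words in common with other genes. On the same strand, Casp8 overlaps the gene model Gm37760 and Ripk1 the pseudogene Gm17084. Bnip3, Birc6 and Fadd overlap an annotated antisense gene. On the opposite strand, Ripk1 overlaps Serpinb6a and Mlkl the pseudogene Gm45712. The sources used here do not say whether strand entered the counting, so reads of these partners may be mixed.

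**Figure D5:**
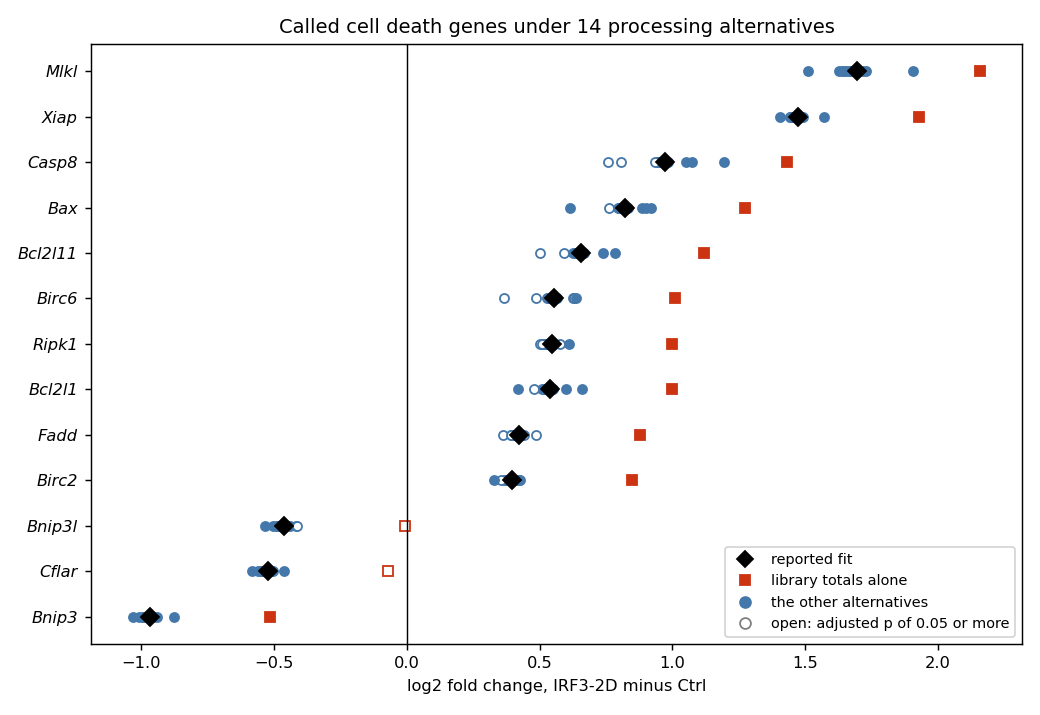
Log2 fold change of IRF3-2D minus Ctrl (horizontal axis) of the 13 called cell death genes in the reported fit (diamonds), with library totals alone (squares) and under the other alternatives (circles); open symbols have an adjusted p of 0.05 or more. Mlkl, Xiap and Bnip3 are filled throughout, library totals move every gene to the right, and Cflar and Bnip3l lie at -0.07 and -0.01 there.

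Other genes of these pathways, from a list of 72 that are no members, gave 49 tested genes, of which 10 were higher and 5 lower. That is 30.6% called, against 26.3% of all genes. The largest rises were those of Tnfrsf25 and Zbp1. Zbp1, a sensor of Z-form nucleic acid that can activate RIPK3, rose from 2.04, 3.87 and 3.28 CPM in Ctrl to 35.7, 36.6 and 28.9 CPM in IRF3-2D libraries, 3.46 higher on the log2 scale (SE 0.24, edgeR adjusted p = 0.000132). Adar, whose product edits double-stranded RNA and limits ZBP1, rose 2.32-fold. Pgam5, a mitochondrial phosphatase, rose 2.07-fold, a call lost when any single library but IRF3-2D replicate 1 was left out, at log2 fold changes of 0.62 to 1.21. The call of Pgam5 was also lost with voom of limma. Its IRF3-2D libraries stood at 10.3, 10.9 and 21.2 CPM, so replicate 3 was far above the others. The death receptor gene Tnfrsf25 had 1, 4 and 0 counts in Ctrl and 40, 45 and 37 in IRF3-2D libraries (log2 fold change 4.21, SE 0.81, adjusted p = 0.00939 by edgeR). Tnfrsf10b, the mouse TRAIL receptor, rose 1.89-fold, with the call lost without any 1 library other than Ctrl replicate 1 (log2 fold changes of 0.76 to 1.01).

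Acin1, a chromatin condensation factor, rose 1.38-fold, lost without IRF3-2D replicate 1 (log2 fold change 0.47) or 2 (0.42). Dffa, the inhibitor of the apoptotic nuclease, fell 1.25-fold and lost its call without Ctrl replicate 2 (log2 fold change -0.29) or 3 (-0.36) or IRF3-2D replicate 1 (-0.33) or 2 (-0.29). With library totals alone its log2 fold change was 0.13. Of the TNF receptor complex, the IKK regulator Ikbkg rose 1.69-fold and the IRF3 kinase gene Tbk1 1.53-fold, while the IKK subunit gene Chuk fell 1.57-fold, a call lost with library totals alone. Tab2, an adaptor of TAK1, rose 1.34-fold, a call lost when any single library but IRF3-2D replicate 3 was left out, at log2 fold changes of 0.32 to 0.44. Of 13 tested inflammasome and pore genes 3 were lower and none higher, or 23.1% called. Among all tested genes 26.3% were called, 13.1% of them all being lower. Il18, an interleukin released by pyroptotic cells, fell 2.13-fold, and the NOD-like receptor genes Nlrp12 and Nlrp6 fell 3.94-fold and 1.70-fold. Of these, Nlrp6 was not called with library totals alone (log2 fold change -0.32).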

How the data were processed

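RNA of 6 mouse liver samples was sequenced from poly-A selected, strand-specific libraries, per the labels' protocols. The deposited values are estimated counts per gene, every one a whole number, not normalized. The submitters' processing notes list Salmon 1.2.1, GRCm38 and mm10, with the role of each not given in the sources used here, nor the annotation or strand setting. Sample titles gave each group and replicate number, and columns were matched by library name.

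Of the identifiers, 20860 matched a gene of GENCODE M21 (GRCm38). Genes were filtered by filterByExpr of edgeR 4.0.16 (R 4.3.3), scaled by TMM, and tested by the quasi-likelihood F-test on the group alone, with Benjamini-Hochberg adjustment over all 10802 tested genes and a threshold of 0.05. A standard error is the log2 fold change divided by the root of its F statistic. On simulated counts with 200 changed genes of 10525, the test recovered 54.6% of 2-fold and 84.0% of 4-fold changes with 7.69% false calls. In the data 2844 of 10802 genes were called, and TMM factors differed between the groups. The simulation held neither so many changes nor such a shift in composition, so its rates may not hold for these calls. Alternatives were DESeq2 1.42.0, voom of limma 3.58.1, other scalings and filters, a replicate block and leaving out each library. The share of 31-base words found in other genes came from GENCODE M21, and promoters from RefSeq on GRCm38.p6.

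The members and gene lists were chosen with earlier results of these data known. Every member is named, called members with all values, and of the other pathway genes those called, apart from an item not reported here. Birc3 and Birc5 were named after their values were seen.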

Additional observations from a re-analysis of the deposited data

How the results depend on the processing

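Of the 13 called members, 3 kept their call under all 14 alternatives (Xiap, Mlkl and Bnip3) and 10 lost it under at least 1; Bmf gained one without IRF3-2D replicate 1 (log2 fold change -7.01). No called member changed sign. With library totals alone 4500 genes were higher and 571 lower, of the members 18 and 1, and of the other pathway genes 18 and 2. There Aifm1 and Endog, near 0 in the reported fit, were called at 0.45 and 0.44, and Dffa turned to 0.13. Leaving out 1 library at a time gave 851 to 1312 genes higher and 920 to 1363 lower, 4 to 8 members higher and 2 to 4 lower, and 6 to 9 other pathway genes higher and 4 to 5 lower; fewer samples enter these fits. The replicate numbers were not taken to pair the samples, as same-numbered samples deviated together with correlations of 0.096, -0.034 and 0.045, and not every sample correlated best with its own number. With the replicate block 4 members were higher and 3 lower, and 1038 genes higher and 1128 lower. The calls of Bcl2l1, Bcl2l11, Casp8, Birc6, Fadd and Ripk1 were lost there, at adjusted p of 0.0653 to 0.103 in edgeR, as were those of Dffa and Pgam5. Counts were too few to test the 11 members below the filter, 3 of them listed at 0, and Fas, with 1 to 19 counts a library, was estimated from few counts.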
